A study of Mus musculus with 119 samples.

Results

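The prefrontal cortex (PFC) of male mice treated with THC during adolescence was compared with that of male mice given vehicle. The comparison rests on the 12 libraries that the labels assign to the male PFC, 6 from THC-treated mice (libraries FTL_279 to FTL_284) and 6 from vehicle-treated mice (libraries FTL_273 to FTL_278), of 119 libraries in the series. The series covers 5 brain regions of both sexes, and each library is poly(A)-selected RNA from punches of 1 region of 1 mouse. Delta-9-tetrahydrocannabinol (THC) was given intraperitoneally at 10 mg/kg in 21 daily injections, the first on postnatal day (PND) 28 and the last on PND 48, and behavioral testing began at PND 63. Vehicle mice received the same injections of ethanol, tween and saline without THC. The labels give both groups as wild-type C57BL/6J males of 11 weeks. The methods instead name the strain C57BL/6NCrl and place the collection of the brains in week 12. All mice had passed through behavioral tests before the brains were collected, so the RNA was sampled after a drug-free interval and not at the time of exposure. Per the methods the 5 regions were punched from the same brains, so the same mice contribute to other regions of the series. The labels carry a library number but no identity of the mouse.

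THC, the main psychoactive compound of cannabis, is a partial agonist of the cannabinoid receptor CB1, encoded by Cnr1. CB1 sits mainly on presynaptic terminals, couples to Gi/o proteins, lowers cAMP and reduces transmitter release when it is activated by the endocannabinoids (eCBs) 2-arachidonoylglycerol and anandamide. In the cortex CB1 is densest on the terminals of cholecystokinin interneurons and is present at lower density on glutamatergic terminals, and the PFC goes on maturing through adolescence.

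The 12 libraries were deep and alike. Vehicle libraries held 22092612 to 25470245 expected counts and THC libraries 20868088 to 25073719, and the Spearman correlation of a library with the others had a median of 0.9954 to 0.9962. Slc17a7, the vesicular glutamate transporter of cortical projection neurons, scaled by total count, lay between 1650 and 1860 CPM (read counts scaled to a common library size) in all 12 libraries and between 1.65 and 19.1 CPM in the 12 male dorsal medial striatum libraries. Adora2a, an adenosine receptor of striatal neurons, had the opposite pattern, with 1.11 to 4.39 CPM in the PFC and 425 to 618 CPM in the striatum. In library FTL_275, a vehicle library, the 4 Y-linked genes Kdm5d, Eif2s3y, Uty and Ddx3y summed to 69.8 CPM, which is 0.5236 of the mean of the other 11 libraries, whereas Xist was at 0 CPM in it. Xist was highest in THC libraries FTL_284 and FTL_279, at 1.5 and 0.94 CPM, followed by vehicle library FTL_276 at 0.39 CPM. In the remaining libraries it was at most 0.092 CPM. The THC libraries FTL_283 and FTL_284 had the highest summed levels of meningeal fibroblast markers, at 81.6 and 46.4 CPM. THC libraries FTL_280 and FTL_279, at 41.5 and 35.1 CPM, also lay above the vehicle maximum of 33.9 CPM. Some results are therefore also given without library FTL_275 or without libraries FTL_283 and FTL_284. The second choice was made after the data were seen.

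No gene met the criteria of a differentially expressed gene (DEG), an FDR under 0.05 with an absolute logFC (log2 fold change, THC minus vehicle) of at least 0.4. Of 15936 genes tested with edgeR, 0 were DEGs (0%), and DESeq2 and limma voom also called 0. Genes at an unadjusted p under 0.05 numbered 648 (4.07%), with 2.3% of all genes tested higher and 1.76% lower with THC. DESeq2 gave 707 such genes and voom 654. The smallest FDR was 0.9996 with edgeR, 0.214 with DESeq2 and 0.9994 with voom. Leaving out library FTL_275 gave 0 DEGs and 593 genes at an unadjusted p under 0.05, and leaving out libraries FTL_283 and FTL_284 gave 0 and 597. Library FTL_277, a vehicle library, was the exception: without it 1045 genes were at an unadjusted p under 0.05 and 1 gene was a DEG. That gene, Gm20390, named here after its values were seen, is a readthrough model over Nme1 and Nme2 on the same strand, so the division of reads among the 3 is uncertain. Its level was 14.9 CPM in library FTL_277, against a vehicle median of 33.6 CPM, a vehicle maximum of 35.7 CPM and 23.4 to 28.3 CPM in the THC libraries. With all 12 libraries its logFC was -0.27 ± 0.183, and without library FTL_277 it was -0.41 (edgeR, adjusted p = 0.00424).

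The depth and spread of these libraries limited, gene by gene, the size of a change in a whole punch that could have gone unseen. The median standard error of the logFC was 0.0596, and the 95% confidence interval lay wholly between -0.4 and 0.4 for 12530 genes (78.6%). Among the 14314 genes with a mean of at least 1 CPM this share was 87.5%. For 8 genes the interval lay wholly outside -0.4 to 0.4. The intervals are for single genes and are not adjusted for the number of genes tested. An absolute logFC of at least 0.4 was found for 370 genes (2.32%), and in 31 genes (0.195%) the 6 THC libraries did not overlap the 6 vehicle libraries, 0.0941% of all being higher and 0.1% lower. The first 2 principal components of the 500 genes of largest variance held 14.8% and 13% of the variance. Treatment accounted for an R2 of 0.197 on the first and 0.00603 on the second, and neither passed an exact permutation test over the samples (adjusted p = 0.281 and 0.823). On the first component Gm12671, Gm10359 and the pseudogene Rpl27-ps3 had the largest absolute loadings. Rnu1a1, Gm22068, Gm22634, Gm23804 and Gm26444 had the same loading of 0.15. The part of read division among like sequences in these components was not tested.

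**Figure D1:**
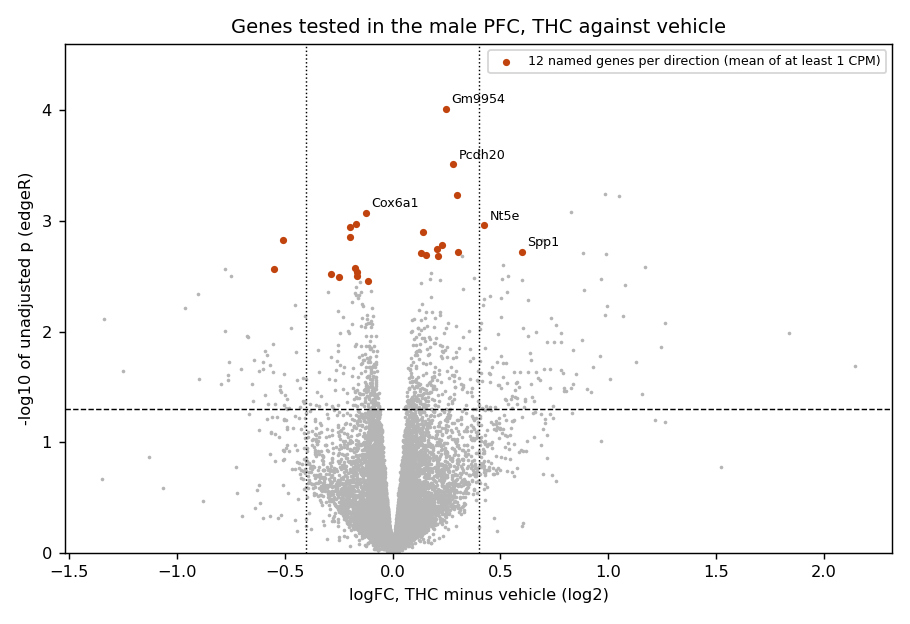
Each point is 1 of the 15936 genes tested, with logFC (THC minus vehicle, log2) on the x axis and the negative log10 of the unadjusted edgeR p on the y axis. Dotted lines mark a logFC of -0.4 and 0.4, the dashed line an unadjusted p of 0.05, and orange points the 24 named genes, with Gm9954 the highest point and most named genes between the dotted lines.

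The 12 genes of smallest p in each direction, among those with a mean of at least 1 CPM, are described here as the strongest differences and none passed the FDR. In 5 of the 24 the groups did not overlap, against 0.195% of all genes. The 24 were picked by p from the same libraries, which favors genes whose groups do not overlap. The gene of smallest p, Gm9954 (chromosome 5, 63646170 to 63650894, minus strand, GRCm38), is an unclassified transcript that lies opposite Nwd2 on the other strand. It ranged from 16.1 to 18.7 CPM in vehicle libraries (median 17.6) and from 18.7 to 22.5 CPM in THC libraries (median 20.7). Of the THC libraries 5 lay above every vehicle library, and the logFC was 0.25 ± 0.0517 (SE, unadjusted p = 9.7e-05).

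Pcdh20 (chromosome 14, 88464743 to 88471396, minus strand), a protocadherin of the cell surface, had 10.6 to 12.5 CPM with vehicle (median 11) and 12.2 to 15.5 CPM with THC (median 13.5), a logFC of 0.28 ± 0.0648. Qpct, the glutaminyl cyclase that matures the N-terminus of peptides, had 7.92 to 9.28 CPM (median 8.66) against 9.07 to 12 CPM (median 10.4), a logFC of 0.30 ± 0.0739. Both had 5 THC libraries above the highest vehicle library. Nt5e (chromosome 9, 88327197 to 88372092, plus strand) encodes CD73, the ectoenzyme that makes extracellular adenosine from AMP. It had 1.87 to 2.41 CPM with vehicle (median 2.32) and 2.62 to 3.39 CPM with THC (median 3.02), a logFC of 0.43 ± 0.113, and was the only gene of the 12 higher ones whose groups did not overlap.

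The other 8 higher genes have unlike roles. Smarca2, an ATPase of the SWI/SNF chromatin remodelers, had 276.98 to 314.6 CPM with vehicle (median 295.1) and 313.3 to 345.1 CPM with THC (median 319.3), and its logFC was 0.14 ± 0.0378. Itpkb, a kinase of inositol trisphosphate, and Rragd, a Rag GTPase of the mTORC1 pathway, had logFC values of 0.23 ± 0.0633 and 0.13 ± 0.0366. Spp1, which encodes osteopontin, had a logFC of 0.60 ± 0.169 with 1.69 to 2.11 CPM in vehicle libraries and 1.61 to 4.18 CPM in THC libraries, the highest being library FTL_283. Zbtb34, a zinc finger gene, had a logFC of 0.21 ± 0.0601. Vip, the neuropeptide of a class of interneurons, had 23.5 to 27.2 CPM with vehicle (median 26.1) and 26.9 to 33.3 CPM with THC (median 28.4), a logFC of 0.21 ± 0.058. Dlx6os1, a noncoding RNA of GABAergic neurons that overlaps Dlx6 on the other strand, had a logFC of 0.30 ± 0.0849. Gabra2, a GABA-A receptor subunit, had 106 to 128 CPM with vehicle (median 120) and 122 to 147 CPM with THC (median 132), a logFC of 0.16 ± 0.0442. Libraries FTL_283 and FTL_284 were the highest of all 12 in Smarca2, Rragd and Vip. Vip was at 33.3 CPM in both, against 26.9 to 28.7 CPM in the other THC libraries. Library FTL_283 was the highest in Itpkb, Gabra2 and Zbtb34, and library FTL_280 in Dlx6os1. Fits without libraries FTL_283 and FTL_284 are not given for these genes.

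The lower genes began with 2 nuclear-encoded subunits of the respiratory chain. Cox6a1 (chromosome 5, 115345642 to 115348981, minus strand), a subunit of cytochrome c oxidase, had 157 to 181 CPM with vehicle (median 174) and 155 to 162 CPM with THC (median 157). The groups overlapped only through library FTL_277, whose next neighbor among vehicle libraries was at 173 CPM, and the logFC was -0.12 ± 0.032. Uqcr10 (chromosome 11, 4701973 to 4704342, minus strand), a subunit of complex III, had 46 to 54.6 CPM with vehicle (median 53) and 43.8 to 50.9 CPM with THC (median 45.5), a logFC of -0.17 ± 0.0443. Here library FTL_277 was again the lowest vehicle library, and library FTL_284 the highest THC library.

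In 4 lower genes the groups did not overlap, where 0.1% of all genes were lower without overlap. Kcnk3, which encodes the TASK-1 background potassium channel, had 29.4 to 34.3 CPM with vehicle (median 31.1) and 25.6 to 29.4 CPM with THC (median 28.5), a logFC of -0.16 ± 0.0486. Fam118a had 14.5 to 16.2 CPM against 12.8 to 14.2 CPM, a logFC of -0.16 ± 0.0494. Gm42971 and Gm49405 had a logFC of -0.55 ± 0.162 and -0.51 ± 0.139 at levels under 2.3 CPM. Gm42971 lies within Ank2 and Gm49405 overlaps Nudt8 and Doc2g on the same strand, so the counting could divide reads between neighbors. Doc2g, with a logFC of 0.49 ± 0.242, is also in the list of olfactory neuron markers given below. Of the 24 genes, Gm9954, Smarca2, Itpkb, Dlx6os1, Rragd, Gpn3, Gm49405, Kcnk3, Gm20878 and Jund overlap a gene on the opposite strand, as do several eCB genes, Napepld among them. The methods name a directional library kit, but whether the counting used strand is not given in the sources used here. The other lower genes were Trmt9b, Gpn3, Nhlrc1, Ppp1r35, Gm20878 and Jund, with logFC values from -0.29 (Ppp1r35, a centriole gene) to -0.11 (Jund, a subunit of the AP-1 transcription factor). Nhlrc1, the ubiquitin ligase malin of glycogen metabolism, had a logFC of -0.18 ± 0.0517.

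The same test in the female PFC, with 6 libraries a group, was read for these genes. Of the 24 genes, 11 had the same sign of logFC in females. At an unadjusted p under 0.05 there, 0 had the same sign and 1, Gm42971, the opposite sign (logFC 0.39). Of all genes 5.84% were at that level in females. Over all 15747 genes tested in both sexes, 47.5% had the same sign. Both counts are thus near the shares of all genes, and the 24 were picked by their p in males. The sex x treatment interaction called 0 of 16451 genes with edgeR (0%), with edgeR without a filter and with DESeq2, and 965 genes (5.87%) were at an unadjusted p under 0.05. The smallest FDR of the interaction was 0.834.

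Genes of the eCB system, the direct molecular context of THC, were measured at nearly the same level in both groups. Of the 22 listed genes 19 were tested, 10 with a logFC above 0 and 9 below 0, whereas 50.8% of all genes tested were above 0, 49.2% below, and the median of all was 0.000993. Cnr1 (chromosome 4, 33924593 to 33948831, plus strand) ranged from 177 to 209 CPM with vehicle (median 187) and from 184 to 209 CPM with THC (median 194). The groups overlapped over almost the whole range, with a logFC of 0.04 ± 0.0415 and a 95% confidence interval of -0.046 to 0.127. Cnr2, Gpr55 and Trpv1, the receptors CB2, GPR55 and TRPV1, stayed under 0.4 CPM in every library and were not tested. The CB1 interacting protein Cnrip1 had a logFC of -0.01 ± 0.0405, and Sgip1, which slows the internalization of CB1, of -0.0025 ± 0.0323.

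Of the 8 synthesis genes 1, Napepld, was at an unadjusted p under 0.05. It was the only member of the 19 eCB genes at that level, a share near the 4.07% of all genes. Napepld (chromosome 5, 21662901 to 21701396, minus strand), the phospholipase D that forms anandamide and related N-acylethanolamines, had 14.3 to 15.3 CPM with vehicle (median 15.2) and 16.2 to 17.2 CPM with THC (median 16.4). The groups did not overlap, as in 0.195% of all genes, and the logFC was 0.13 ± 0.0445 (unadjusted p = 0.00782). Dagla, the lipase that makes 2-arachidonoylglycerol at synapses, had 116 to 132 CPM against 109 to 135 CPM, a logFC of 0.01 ± 0.046, and Daglb had a logFC of -0.04 ± 0.0374. The remaining synthesis genes lay between -0.11 (Pla2g4e) and 0.03 (Abhd4).

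The 8 breakdown and transport genes had 0 members at an unadjusted p under 0.05. Mgll, the lipase that degrades 2-arachidonoylglycerol, had 258.6 to 299.6 CPM with vehicle (median 279.3) and 252.3 to 297.1 CPM with THC (median 275.9), a logFC of -0.01 ± 0.0399. Faah, the hydrolase of anandamide, had 89.4 to 100 CPM (median 94) against 92 to 104 CPM (median 97), a logFC of 0.04 ± 0.0347. Both pairs of groups overlapped over most of their range. Fabp7, a brain fatty acid binding protein, and Ptgs2, a cyclooxygenase that also oxidizes eCBs and that neuronal activity induces, had the largest values of the list, a logFC of 0.23 ± 0.11 and 0.23 ± 0.12. For 17 of the 19 genes, all but these last 2, the 95% confidence interval lay within -0.4 to 0.4.

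**Figure D2:**
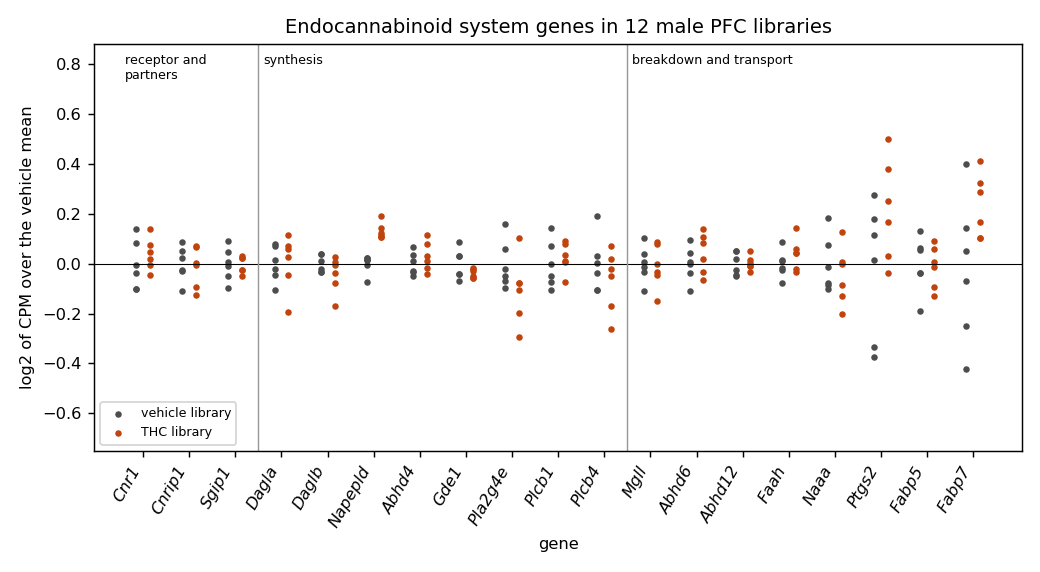
For each of the 19 eCB genes tested, points show the log2 of the CPM of a library over the mean of the 6 vehicle libraries, gray for vehicle and orange for THC, in the order receptor and partners, synthesis, breakdown and transport. THC and vehicle points overlap in every gene except Napepld, where the 6 THC libraries sit at 16.2 to 17.2 CPM and the vehicle libraries at 14.3 to 15.3 CPM.

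The signaling and synaptic genes through which CB1 acts had medians close to 0. Of 28 Gi/o and cAMP genes 13 had a logFC above 0 and 0 were at an unadjusted p under 0.05, with a median of -0.00358. The 26 genes of transmitter release, among them the SNARE gene Snap25 and the active zone gene Unc13a, were divided 13 and 13 with a median of -0.000593 and 0 at an unadjusted p under 0.05. Every 95% confidence interval in both lists lay within -0.4 to 0.4. Rgs8 and Rgs4, regulators that speed the shut-off of G proteins, had the smallest p of the first list, with a logFC of 0.15 ± 0.0747 and 0.11 ± 0.0567.

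Receptors for glutamate, GABA and monoamines were also little different. Of 17 AMPA, NMDA and kainate receptor subunits 13 had a logFC below 0, with a median of -0.00694 and the lowest value in Grin2c (-0.08 ± 0.046). GABA receptor subunits were above 0 in 11 of 14 with a median of 0.0273, Gabra2 being the only member at an unadjusted p under 0.05. Of 23 dopamine, serotonin and noradrenaline receptors and degrading enzymes 12 were above 0, and Htr3a and Htr2a were at an unadjusted p under 0.05 with a logFC of 0.28 ± 0.127 and 0.14 ± 0.0644, against 2.3% of all genes higher at that level. Without libraries FTL_283 and FTL_284 neither of the serotonin receptors was at that level (0.12 and 0.13, unadjusted p = 0.287 and 0.114).

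Immediate early genes, which neurons transcribe within minutes of strong activity, had a larger median than any of the signaling and receptor lists. In 19 of 21 the logFC was above 0, with a median of 0.194, but 0 were at an unadjusted p under 0.05. The promoters of several of these genes are shown because calcium and cAMP act on them through CREB, which binds the cAMP response element. The sequences are the 250 bases before the RefSeq start site (GRCm38.p6), read in the direction of transcription, with capitals for the core TGACGT or its reverse complement ACGTCA. Fos is at chr12:85473640-85473889 on the plus strand, Npas4 at chr19:4989972-4990221, Egr4 at chr6:85513590-85513839 and Btg2 at chr1:134079156-134079405, the last 3 on the minus strand.
Fos: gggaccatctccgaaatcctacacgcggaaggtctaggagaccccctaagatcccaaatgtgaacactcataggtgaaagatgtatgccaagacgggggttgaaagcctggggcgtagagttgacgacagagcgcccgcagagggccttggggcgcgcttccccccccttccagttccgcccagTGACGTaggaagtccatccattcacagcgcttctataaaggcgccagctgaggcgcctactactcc
Npas4: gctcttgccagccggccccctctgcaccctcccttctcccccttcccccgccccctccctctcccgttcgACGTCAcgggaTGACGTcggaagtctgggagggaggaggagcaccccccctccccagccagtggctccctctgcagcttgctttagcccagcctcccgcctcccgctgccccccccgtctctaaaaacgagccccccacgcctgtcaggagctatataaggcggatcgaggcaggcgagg
Egr4: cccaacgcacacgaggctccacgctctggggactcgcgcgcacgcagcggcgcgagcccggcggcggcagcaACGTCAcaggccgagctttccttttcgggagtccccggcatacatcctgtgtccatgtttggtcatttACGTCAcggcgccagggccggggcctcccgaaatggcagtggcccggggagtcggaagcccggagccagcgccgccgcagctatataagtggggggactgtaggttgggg
Btg2: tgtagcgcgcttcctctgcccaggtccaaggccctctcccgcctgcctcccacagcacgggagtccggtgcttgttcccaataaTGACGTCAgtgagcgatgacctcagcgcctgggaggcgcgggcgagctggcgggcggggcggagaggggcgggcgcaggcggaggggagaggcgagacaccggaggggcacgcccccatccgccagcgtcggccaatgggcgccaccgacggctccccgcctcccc
Of the 21 genes 16 had a window in the RefSeq table, and 8 of these, the 4 shown and Egr2, Nr4a3, Dusp1 and Homer1, held the core on either strand. A window with the core was found for 7.29% of all 27025 genes in the table, and 6.47% of all 32851 windows held it. The full palindrome TGACGTCA, in which the core and its reverse complement overlap, was in the windows of Btg2 and Dusp1, for 1.77% of all genes and in 1.55% of all windows.

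The activity-regulated transcription factors varied more between libraries than between groups. Fos ranged from 3.62 to 9.81 CPM with vehicle (median 6.63) and from 3.88 to 14.6 CPM with THC (median 6.8), a logFC of 0.33 ± 0.383. Npas4, a factor induced in depolarized neurons, ranged from 7.79 to 14.3 CPM (median 10.2) and from 9.95 to 16.7 CPM (median 13.6), a logFC of 0.29 ± 0.191. Egr2 had the largest logFC of the list, 0.69 ± 0.397, at 0.309 to 1.01 CPM with vehicle and 0.419 to 2.15 CPM with THC. In each of these genes the ranges of the groups overlapped widely. Egr1, Egr3 and Egr4 had a logFC of 0.22 ± 0.151, 0.19 ± 0.098 and 0.10 ± 0.107, and Junb of 0.13 ± 0.24.

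Effector genes of synapses and signaling had the same spread. Arc, which removes AMPA receptors from synapses, ranged from 38.5 to 71.5 CPM with vehicle (median 50.7) and from 37.7 to 130 CPM with THC (median 62.3), a logFC of 0.47 ± 0.337. Btg2, an antiproliferative gene, had a logFC of 0.26 ± 0.184, Dusp1, a phosphatase of MAP kinases, of 0.16 ± 0.229, and Nr4a1, an orphan nuclear receptor, of 0.23 ± 0.261. Library FTL_282 was the highest THC library in 14 of the 21 genes and library FTL_279 the lowest in 11, and among vehicle libraries FTL_278 was the lowest in 12. The summed level of the list was 718.2 to 877.2 CPM with vehicle and 755.3 to 1108 CPM with THC, where libraries FTL_282, FTL_284 and FTL_283, at 1108, 1036 and 920.9 CPM, lay above every vehicle library and the other 3 within the vehicle range. Without library FTL_282 the logFC was above 0 in 16 of 21 with a median of 0.0719, and without libraries FTL_283 and FTL_284 in 19 of 21 with a median of 0.0655.

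**Figure D3:**
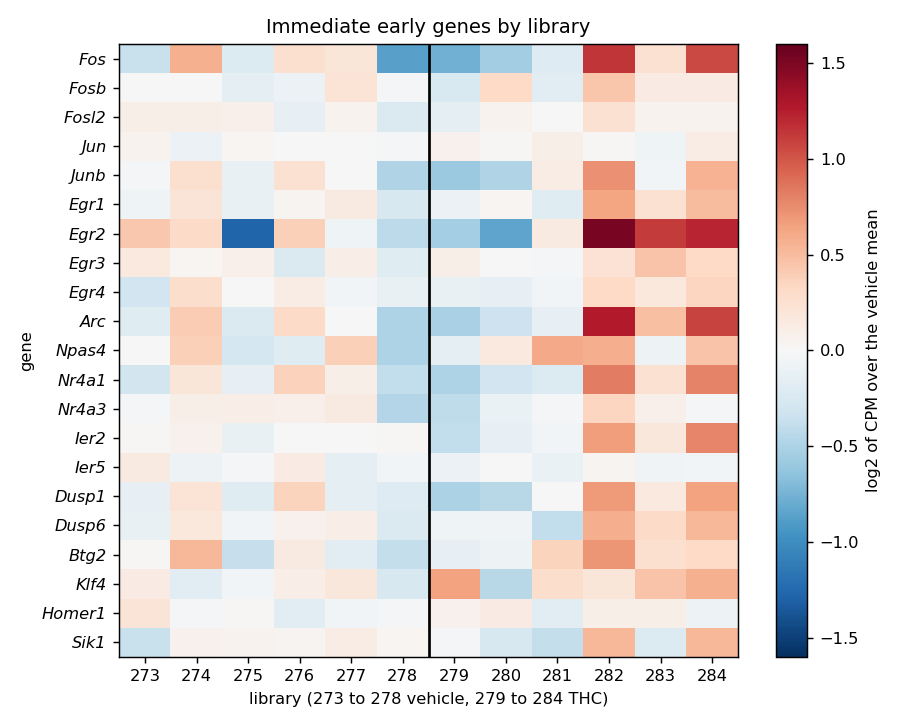
Rows are the 21 immediate early genes and columns the 12 libraries, FTL_273 to FTL_278 vehicle and FTL_279 to FTL_284 THC, and color gives the log2 of the CPM over the mean of the vehicle libraries. Libraries FTL_282 and FTL_284 are red for most genes, whereas libraries FTL_278 and FTL_279 are blue for many of them, as in Arc, which spans 37.7 to 130 CPM among the THC libraries.

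In the female PFC the same list lay on the other side of 0. There 20 of 21 genes had a logFC below 0, with a median of -0.28, where 48.7% of all genes were. At an unadjusted p under 0.05, 8 were lower and 1, Jun, was higher, where 5.84% of all genes were at that level and 3.13% were lower. The interaction, male minus female, was above 0 for 20 of 21 and above 0 at an unadjusted p under 0.05 for 8, against 2.9% of all genes. The largest of these was 2.25 for Egr2 (unadjusted p = 0.00487), followed by Fos with 1.47, Npas4 with 1.26 (unadjusted p = 0.0035) and Egr1 with 1.02 (unadjusted p = 0.00241). None passed the FDR, whose smallest value over all genes was 0.834. Female libraries were not left out in turn, so the part of single female libraries in these counts was not tested. The 10 late response genes, which follow the immediate early wave and include Inhba and Nrn1, were above 0 in 7 in males, with a median of 0.024 and 0 at an unadjusted p under 0.05.

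The RNA came from whole punches, so fewer cells of a type and less RNA per cell cannot be told apart in what follows. Markers of upper layer projection neurons had a logFC above 0 in 12 of 13, with a median of 0.0901 and 0 at an unadjusted p under 0.05. Otof, Wfs1 and Rasgrf2 had the largest values, 0.43 ± 0.241, 0.31 ± 0.156 and 0.25 ± 0.145. Vehicle library FTL_273 was the lowest of its group in 9 of the 13 genes, for example in Otof, with 5.27 CPM against a vehicle median of 13.5 CPM and a THC minimum of 13.6 CPM. Without library FTL_273 the list was above 0 in 9 of 13 with a median of 0.0256. Libraries FTL_283 and FTL_284 were the highest of all 12 in these 3 genes, with Wfs1 at 86.3 and 81.4 CPM against 41.9 to 64.4 CPM in the others. Without them the logFC was 0.24 for Otof, 0.09 for Wfs1 and 0.11 for Rasgrf2, and the list was above 0 in 11 of 13 with a median of 0.0514.

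Deep layer markers lay on the other side, with a logFC below 0 in 15 of 19 and a median of -0.0589. There were 4 below 0 at an unadjusted p under 0.05, where 1.76% of all genes were. Tshz2, a marker of near-projecting neurons, had 35.3 to 39 CPM with vehicle (median 37) and 31.7 to 36.5 CPM with THC (median 33.7), a logFC of -0.13 ± 0.0444. Bcl11b, the factor CTIP2 of subcortically projecting neurons, had 92.3 to 108 CPM (median 96.9) against 73.5 to 94.8 CPM (median 91.2), a logFC of -0.17 ± 0.0621. In both, 4 of the THC libraries lay below every vehicle library. Fezf2, which specifies subcortical projection neurons, and Ntsr1, a marker of corticothalamic neurons, had a logFC of -0.19 ± 0.0747 and -0.24 ± 0.095. Library FTL_284 was the lowest THC library in 12 of the 19 markers and library FTL_276 the lowest vehicle library in 13. Without libraries FTL_283 and FTL_284, 0 of the 19 were at an unadjusted p under 0.05, 12 were below 0 and the median was -0.0257. Without library FTL_276 all 19 were below 0, 5 at an unadjusted p under 0.05, with a median of -0.129, and without library FTL_278 the count at that level was 6.

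Interneuron markers were above 0 in 17 of 27 with a median of 0.0478, and 4 were higher at an unadjusted p under 0.05, against 2.3% of all genes. These were Vip, already described, Adarb2, a marker of interneurons from the caudal ganglionic eminence, Htr3a of the same class, and Maf. Adarb2 had 11.3 to 15.8 CPM with vehicle (median 13.9) and 14.4 to 16.3 CPM with THC (median 15.7), a logFC of 0.17 ± 0.0647. With each library left out the count higher at an unadjusted p under 0.05 was 2 to 5 and the median 0.0175 to 0.0678, the lowest median being without library FTL_274 and the count of 2 without FTL_273, FTL_277 or FTL_283. Without libraries FTL_283 and FTL_284 together Htr3a and Maf were no longer at that level (logFC 0.12 and 0.10). Sst, Pvalb and Lhx6 had a logFC of -0.11 ± 0.066, -0.07 ± 0.0639 and -0.11 ± 0.0576, none at an unadjusted p under 0.05. Cck, the peptide of the interneurons richest in CB1 and also made by pyramidal neurons, had 291.2 to 326.9 CPM with vehicle (median 315.1) and 276.4 to 372.2 CPM with THC (median 297.7), a logFC of -0.01 ± 0.0594. Gad1 and Gad2, the enzymes of GABA synthesis, had a logFC of 0.05 ± 0.0412 and 0.01 ± 0.0462.

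Glial lists had 0 members at an unadjusted p under 0.05. Of 18 oligodendrocyte markers 16 had a logFC below 0, with a median of -0.0419, but libraries FTL_276 and FTL_284 were the lowest of their groups in all 18 and library FTL_279 the highest THC library in all 18. The summed level spanned 2371 to 3719 CPM with vehicle and 2238 to 3851 CPM with THC, and without libraries FTL_283 and FTL_284 the count below 0 was 7 of 18 with a median of 0.0165. Astrocyte markers were above 0 in 11 of 14 with a median of 0.0234, and microglia markers in 7 of 15 with a median of -0.00394. Of 16 markers of endothelium and pericytes 9 were above 0. Pecam1, a junction protein of endothelial cells, had 8.7 to 10.3 CPM with vehicle and 6.08 to 8.95 CPM with THC, a logFC of -0.25 ± 0.0835 (unadjusted p = 0.00645).

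Markers of meningeal fibroblasts, the cells of the membranes on the cortical surface, had the largest median of all lists with all 12 libraries. All 10 had a logFC above 0, with a median of 0.649, and 5 were higher at an unadjusted p under 0.05, against 2.3% of all genes. Col3a1, a fibrillar collagen, had 0.458 to 0.707 CPM with vehicle (median 0.554) and 0.505 to 1.8 CPM with THC (median 1.17), a logFC of 1.05 ± 0.26 (unadjusted p = 0.000594). Aldh1a2, the meningeal enzyme of retinoic acid synthesis, had 0.366 to 1.72 CPM against 0.956 to 4.43 CPM, a logFC of 1.13 ± 0.415. Library FTL_283 was the highest THC library in all 10 genes and library FTL_273 the lowest vehicle library in 8. The summed level was 18.1 to 33.9 CPM with vehicle and 22.2 to 81.6 CPM with THC. Libraries FTL_284, FTL_280 and FTL_279, at 46.4, 41.5 and 35.1 CPM, also lay above every vehicle library. Without libraries FTL_283 and FTL_284 the logFC was above 0 in 9 of 10 with a median of 0.215, below the 0.656 of the 3 olfactory neuron markers, and Col3a1 alone was at an unadjusted p under 0.05 (logFC 0.78). Library FTL_283 also had the highest erythrocyte sum, 246.2 CPM against 81.28 to 142.4 CPM in the other libraries. The part of these markers in the values of other genes, Spp1 among them, was not tested.

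**Figure D4:**
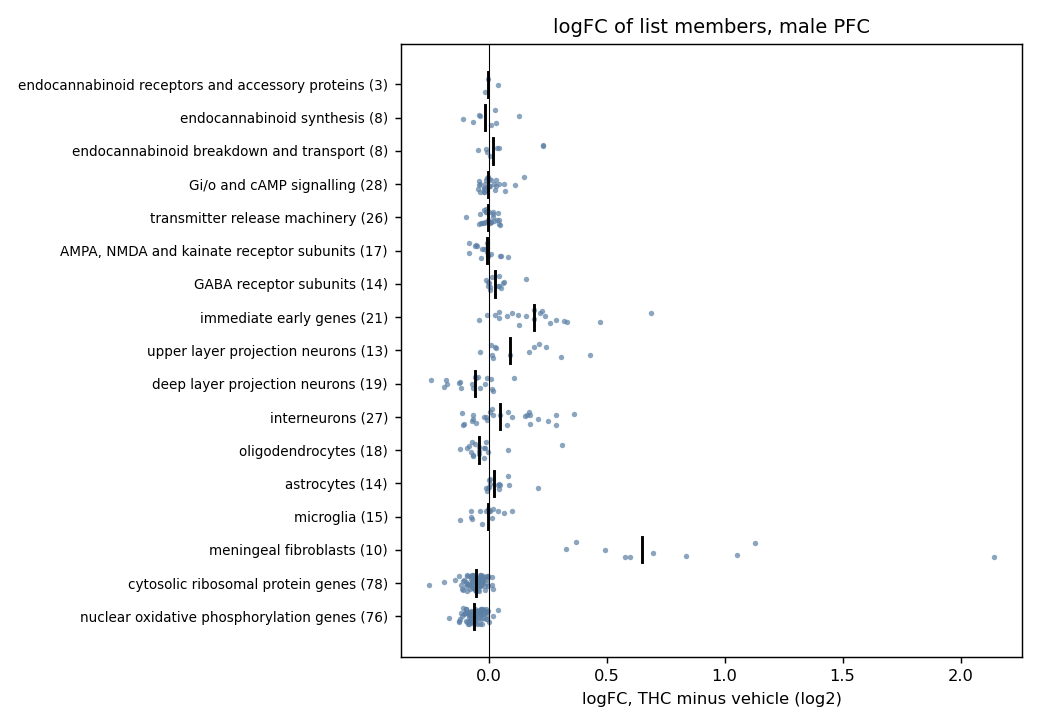
Points are the logFC values (THC minus vehicle, log2) of the tested members of 17 lists, the number of members stands in parentheses, and the black bar is the median of the list. Medians of the eCB, signaling and receptor lists lie near 0, that of immediate early genes at 0.194 and that of meningeal fibroblast markers at 0.649, and the ribosomal and respiratory chain members lie almost all slightly below 0.

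Since 2 respiratory chain genes led the lower group, 2 lists were added by gene name after the values had been seen, and they serve as description only. Of 76 nuclear genes of oxidative phosphorylation, 74 had a logFC below 0, with a median of -0.0604, and 12 were lower at an unadjusted p under 0.05, against 1.76% of all genes. Of 78 cytosolic ribosomal protein genes, 75 were below 0, with a median of -0.0541, and 8 were lower at an unadjusted p under 0.05, against the same share. After Cox6a1 and Uqcr10 the next were Ndufs7 and Ndufa11, subunits of complex I, with a logFC of -0.12 ± 0.0401 and -0.12 ± 0.0457, and Rpl35a of the large ribosomal subunit with -0.14 ± 0.0462. The 95% confidence interval lay within -0.4 to 0.4 for all 76 and for 76 of the 78 genes. The summed level of the respiratory chain list was 8174 to 9348 CPM with vehicle (median 8934) and 8252 to 8849 CPM with THC (median 8604).

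The number at an unadjusted p under 0.05 changed with the libraries used. Library FTL_277 was the lowest of its group in 67 of the 76 respiratory chain genes and in 70 of the 78 ribosomal genes, and without it 37 and 38 were lower at an unadjusted p under 0.05, while the share over all genes was 3.64%. Without library FTL_276, the highest vehicle library by summed level in both lists, the counts were 5 and 2 and the share over all genes 1.37%. Among THC libraries FTL_279 was the lowest in 44 and 57. With each library left out in turn, 68 to 74 of 76 and 66 to 77 of 78 stayed below 0. The 13 mitochondrially encoded genes, the other part of the respiratory chain, were above 0 in 7 with a median of 0.00168. In the female PFC 38 of the 76 and 29 of the 78 were below 0, with medians of -0.000572 and 0.0109.

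**Figure D5:**
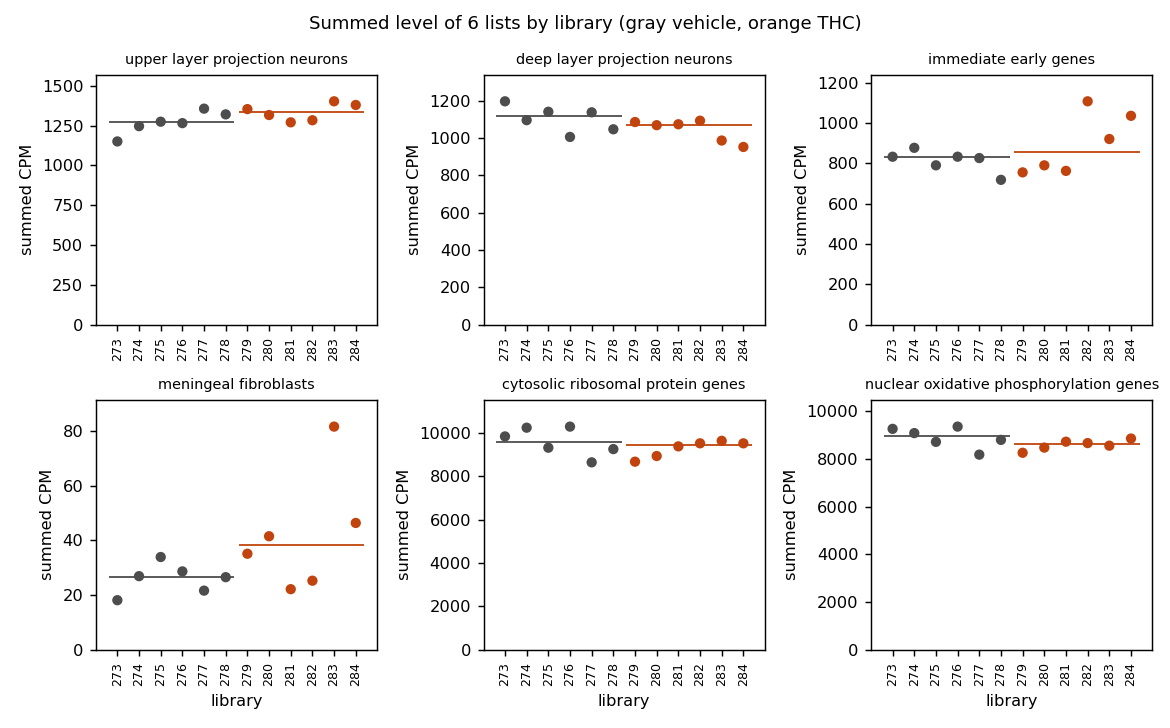
Each panel gives the summed CPM (y axis, from 0) of a list in the 12 libraries (x axis), gray for vehicle and orange for THC, with a line at the median of each group. Meningeal fibroblast markers are highest in library FTL_283 at 81.6 CPM, immediate early genes in library FTL_282 at 1108 CPM, and the ribosomal and respiratory chain sums are lowest in vehicle library FTL_277 and in THC library FTL_279.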

How the data were processed

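The 119 libraries are in 2 deposited tables of expected counts for 55291 genes, of which 1 holds all PFC libraries, made by the authors from trimmed reads, and per the submitters' processing notes the tools were cutadapt 2.9, STAR 2.7.3a and RSEM 1.3.1 with the build mm10. The annotation used for counting is not given in the sources used here. Of the male PFC values 4.75% were not whole, 10.6% among the genes tested, and expected counts were rounded to whole numbers before testing. The number of columns of single libraries left out of use was 0. Depth ranged from 20868088 to 25470245 expected counts.

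The 12 male PFC libraries were filtered with filterByExpr, scaled by TMM and tested with the robust quasi-likelihood test of edgeR 4.0.16 (R 4.3.3) with Benjamini-Hochberg adjustment. Sex x treatment was tested over the 4 PFC groups. Levels are TMM-scaled CPM, except where scaled by total count, and components used log2 CPM with a prior count of 2. DESeq2 1.42.0, its size factors, voom of limma 3.58.1, no filter, a fit over all PFC groups and leaving out each library were the alternatives, and leaving out libraries FTL_283 and FTL_284 was added after the data were seen. The tests were tried on simulated counts. Separate mice are taken from the methods, and the labels do not identify them.

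Named genes were the 12 of smallest p in each direction with a mean of at least 1 CPM, all eCB genes tested and the 2 members of smallest p in each other list, 109 in all. Some of these are not reported here. Further list members were named after their values were seen. The members and lists were chosen with earlier results of these data known, and the ribosomal and respiratory chain lists after their values were seen. Gene positions are from GENCODE vM21 (GRCm38), and promoters from RefSeq (GRCm38.p6).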

Additional observations from a re-analysis of the deposited data

Results flagged for a closer look

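In 172 groups of 6 libraries, the gap between the most extreme library and its neighbor was compared with the range of the group (Dixon's ratio). The gap passed the 95% critical value in 8 groups, where chance passes it in about 1 of 20. In vehicle library FTL_275 the sum of the sex chromosome genes was 69.8 CPM against 129 CPM in the nearest vehicle library (ratio 0.862), Napepld was 14.3 against 15 CPM (0.641) and Gm20878 was 10.8 against 9.26 CPM (0.647). In vehicle library FTL_277 Cox6a1 was 157 against 173 CPM (0.659). In vehicle library FTL_276 the summed interferon response and MHC class I genes were 186 against 169 CPM (0.673). In THC library FTL_283 the summed erythrocyte genes were 246 against 142 CPM (0.767). In THC library FTL_284 Uqcr10 was 50.9 against 46 CPM (0.682). In THC library FTL_281 the summed dopamine, serotonin and noradrenaline receptors and enzymes were 442 against 469 CPM (0.649).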

How the results depend on the processing

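DEGs numbered 0 in every alternative except without library FTL_277 (range with each library left out 0 to 1). Genes at an unadjusted p under 0.05 ranged from 491 to 1045 with each library left out and numbered 1459 without a filter, and 1669 for the interaction without a filter, where more genes were tested. Of 1853 values of the 109 named genes under alternatives, 0 passed the threshold and 43, in 14 genes, had the other sign. With each library left out the logFC ranged from -0.0364 to 0.00756 for Cnrip1, from -0.0229 to 0.0154 for Sgip1, from -0.0124 to 0.047 for Dagla, from -0.0308 to 0.0166 for Mgll, from -0.00633 to 0.0135 for Abhd12, from -0.0476 to 0.0137 for Fabp5, from -0.0032 to 0.0568 for Kcnh3, from -0.0142 to 0.0255 for Jph3, from -0.0166 to 0.0554 for Hapln4 and from -0.0855 to 0.175 for Kl. Without libraries FTL_283 and FTL_284, a choice made after seeing the data, the logFC had the other sign for Sgip1 (0.0026), Dagla (-0.00701), Plcb4 (0.00585), Abhd12 (-0.00468), Nrn1 (-0.022), Kcnh3 (-0.0264), Jph3 (-0.0157), Elavl2 (0.0169), Gjb6 (-0.0159) and Kl (-0.122), and without a filter for Abhd12 (-0.000362). Of 560 list medians 7, in 4 lists, moved by more than 1 SD of the vehicle libraries. These were forebrain projection neurons (-0.0525 to 0.000138 with each library left out), interneurons (0.0175 to 0.0678), and, without libraries FTL_283 and FTL_284, meningeal fibroblasts (0.215) and olfactory neurons (0.656). The cause was not tested. No paired analysis was made because THC and vehicle were given to different mice. Library numbers run in a block per group, so any effect of their order cannot be told apart from treatment. The depth left genes under about 1 CPM with wide intervals, and p-values measure the spread between these libraries only.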

Other observations

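Further lists were near 0 at their median. Chromatin regulators had a logFC above 0 in 20 of 39 with a median of 0.00101, and 3 were higher at an unadjusted p under 0.05, against 2.3% of all genes. These were Smarca2, Hdac9, a class IIa histone deacetylase (logFC 0.12 ± 0.0406), and Ezh2, the methyltransferase of histone H3 lysine residues in the Polycomb complex (0.29 ± 0.113). Actin and dendritic spine genes were above 0 in 20 of 32 with a median of 0.00782. Limk1, the kinase that inactivates cofilin, had 74.3 to 84.3 CPM with vehicle and 64.5 to 78.1 CPM with THC (logFC -0.12 ± 0.0444), Actb had a logFC of -0.06 ± 0.0296, and Homer2, a postsynaptic scaffold, had 60 to 66.9 against 62.1 to 80.7 CPM (logFC 0.15 ± 0.0524). Perineuronal net genes were above 0 in 8 of 13 with a median of 0.027, and Mmp9, a protease of the extracellular matrix, had a logFC of -0.41 ± 0.193 at levels under 1.4 CPM.

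Lists tied to stress, time of day and immunity were measured beside these. Glucocorticoid response genes were above 0 in 9 of 17 (median 0.00605), with Pdk4 at 5.94 to 7.14 CPM with vehicle and 6.93 to 7.94 CPM with THC (logFC 0.19 ± 0.071). Heat shock genes were above 0 in 7 of 12 (median 0.00782), with Hspa1a at 12.5 to 14.1 against 11.4 to 12.8 CPM (logFC -0.15 ± 0.0543). Clock genes were above 0 in 11 of 19 (median 0.00619), and interferon and MHC class I genes in 12 of 18 (median 0.0381), both with 0 at an unadjusted p under 0.05. Opioid peptides and receptors were above 0 in 4 of 7 (median 0.0134), with Oprl1, the nociceptin receptor, at a logFC of -0.06 ± 0.0352.

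Forebrain projection neuron markers were above 0 in 2 of 7 (median -0.0151), with the transcription factor Neurod2 at 114 to 122 CPM with vehicle and 106 to 116 CPM with THC (logFC -0.10 ± 0.0312). Oligodendrocyte precursor markers were above 0 in 5 of 7 (median 0.00322). Markers of tissue outside the PFC were above 0 in 7 of 12 for medium spiny neurons (median 0.0597), 2 of 3 for olfactory neurons (0.384), 2 of 2 for choroid plexus (0.132) and 5 of 5 for erythrocytes (0.262), all with 0 at an unadjusted p under 0.05. Library FTL_283 was the highest THC library in all 5 erythrocyte genes, and with each library left out that median ranged from 0.0444 to 0.341. The sex chromosome genes were above 0 in 4 of 4 (0.113), with library FTL_275 the lowest vehicle library in all 4. With each library left out their median ranged from 0.00594 to 0.155. The key driver genes named by the study were found with gene modules of this series on other network data, those of the male PFC with modules of these samples, so these are not independent evidence. Those of the male PFC were above 0 in 5 of 10 (median -0.00146), those of the female PFC in 4 of 5 (0.00932) and those shared in the nucleus accumbens in 2 of 4 (0.00272), with 0 at an unadjusted p under 0.05.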
